A study of Mus musculus with 4 samples.

Results

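The CXC chemokine genes of cardiac neutrophils are described across the 4 libraries of an RNA-Seq study of myocardial infarction and reperfusion (MI/R). The 9 members, *Cxcl1*, *Cxcl2*, *Cxcl3*, *Cxcl9*, *Cxcl10*, *Cxcl12*, *Cxcl14*, *Cxcl16* and *Pf4*, were taken by gene name from the 25655 genes of the deposited tables. The study compared WT mice with *Cd300a-/-* mice, in which the deletion is present in the whole body, so that the cells that surround the neutrophils lack the receptor too. CD300a is an inhibitory receptor of myeloid cells that binds phosphatidylserine on dying cells. Male mice on the C57BL/6 background, 8 to 12 weeks of age, had 60 minutes of ischemia by ligation of the left anterior descending artery, followed by reperfusion. On day 3 after MI/R, cells positive for CD45.2, CD11b and Ly6G were sorted from the heart by SiglecF, a lectin that marks eosinophils and a subset of tissue neutrophils.

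The 4 groups were SiglecF lo neutrophils of WT mice, SiglecF lo neutrophils of *Cd300a-/-* mice, SiglecF hi neutrophils of WT mice and SiglecF hi neutrophils of *Cd300a-/-* mice. The labels call these subsets SiglecF-negative and SiglecF-positive. Where 4 values follow each other below, they are in this order of groups. Each group is 1 library made from the pooled cells of 8 mice, so there is no spread between replicates, no P value is given and every value describes these libraries.

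CXC chemokines are small secreted proteins that direct leukocytes through G protein-coupled receptors. Those with an ELR motif, such as CXCL1, CXCL2 and CXCL3, act on CXCR2 and draw neutrophils to injured tissue, and neutrophils that have arrived make them as well. The interferon-induced ligands CXCL9 and CXCL10 act on CXCR3 of lymphocytes, whereas CXCL12 acts on CXCR4, which holds neutrophils in the bone marrow and increases on aged neutrophils.

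The tables hold 9631901, 10988619, 19278243 and 17632989 counts. Levels are given in TPM, a share of all transcripts after correction for gene length, with the counts behind them. Ratios between libraries are log2 ratios of TPM + 1, with a 95% interval that covers the counting error of both libraries and nothing else. Genes were counted where TPM averaged over 10 across the libraries, which kept 8 of the 9 members and 6523 of all genes, and a ratio past 0.5 in either direction was called. *Cxcl12*, at a mean of 11.1 TPM, was the member just inside the limit, and *Cxcl9*, at a mean of 1.31 TPM, was outside it.

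Markers of cell identity were examined first. All 10 neutrophil markers were over 10 TPM in every library, and their summed level was 156388, 204457, 28701 and 33778 TPM, far higher in the SiglecF lo libraries. *S100a9* was the most abundant of them in each library. *Ly6g*, which encodes the sorted antigen, was at 330.4, 889, 11.1 and 41.9 TPM, and was thus low in both SiglecF hi libraries. *Siglecf* was at 11.3, 15.3, 354 and 405 TPM, *Ptprc*, which encodes CD45, at 608, 683, 646 and 710.0 TPM, and *Itgam*, which encodes CD11b, at 367, 550.4, 337 and 388 TPM. Macrophage markers were present too. The 14 listed summed to 3189, 2985, 7817 and 7024 TPM, higher in the SiglecF hi libraries. *C1qb*, the most abundant of them on average, was at 839, 754, 2257 and 2036 TPM, above *Ly6g* except in *Cd300a-/-* SiglecF lo neutrophils. The share of other cell types in the libraries was not tested. *Cd300a* had 3024 and 6640 counts in the WT libraries and 28 and 27 counts in the *Cd300a-/-* libraries. The libraries also differed in how evenly their reads were spread, since the 10 most abundant genes held 22.8%, 26.7%, 12.3% and 11.8% of all TPM.

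The ELR chemokines dominated the family. *Cxcl2*, a ligand of CXCR2, was at 2801 TPM (26758 counts), 2121 TPM (22349 counts), 4829 TPM (78781 counts) and 5222 TPM (76260 counts) in the order of groups given above, that is, higher in both SiglecF hi libraries. It ranked 37, 56, 19 and 17 among all genes of these libraries by TPM. *Cxcl1*, the other classical neutrophil attractant of the mouse, was at 330.0 TPM (1616 counts), 140.3 TPM (758 counts), 552 TPM (4613 counts) and 372 TPM (2788 counts). WT SiglecF hi neutrophils thus held the most *Cxcl1* and *Cd300a-/-* SiglecF lo neutrophils the least. *Cxcl3*, the least abundant of these CXCR2 ligands on average, was at 296 TPM (1544 counts), 194 TPM (1117 counts), 353 TPM (3144 counts) and 348 TPM (2781 counts). Its counting intervals overlapped between the SiglecF hi libraries, 340.4 to 365 TPM in WT and 336 to 362 TPM in *Cd300a-/-* cells, and by TPM the levels of the other libraries lay below both. By counts scaled with TMM factors (TMM-scaled CPM) *Cxcl3* was instead highest in WT SiglecF lo neutrophils, at 176, 117, 144 and 141 CPM.

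Of the CXCR3 ligands, *Cxcl10* was well expressed and *Cxcl9* was near the lower end of what these libraries can measure. *Cxcl10* was at 158 TPM (1234 counts), 67.0 TPM (577 counts), 220.3 TPM (2939 counts) and 262 TPM (3128 counts), with no overlap between the counting intervals of any pair. *Cxcl9* had 29, 12, 37 and 25 counts, or 1.95, 0.733, 1.46 and 1.10 TPM. Its intervals overlapped for every pair of libraries but the SiglecF lo pair, where they were 1.31 to 2.81 TPM in WT and 0.379 to 1.28 TPM in *Cd300a-/-* cells. *Cxcl10* therefore exceeded *Cxcl9* by a TPM ratio of 80.9, 91.4, 151 and 238.

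Among the remaining members, *Pf4* was the most abundant. It encodes platelet factor 4, stored in platelet granules and also made by some macrophages, and was at 345 TPM (1241 counts), 235 TPM (933 counts), 867 TPM (5326 counts) and 627 TPM (3450 counts). *Cxcl16* encodes a membrane-bound ligand of CXCR6 that is shed by proteases, and was at 56.6 TPM (785 counts), 53.9 TPM (824 counts), 137 TPM (3254 counts) and 146 TPM (3092 counts). Both genes were higher in each SiglecF hi library than in either SiglecF lo library, and the intervals of *Cxcl16* overlapped between genotypes within each subset. *Cxcl14*, a chemokine of epithelial and stromal tissue, was at 9.05 TPM (85 counts), 7.92 TPM (82 counts), 24.3 TPM (389 counts) and 22.0 TPM (316 counts), with overlap between genotypes in the same way. *Cxcl12*, the CXCR4 ligand made chiefly by stromal cells, was at 8.45 TPM (311 counts), 6.43 TPM (261 counts), 13.5 TPM (848 counts) and 15.9 TPM (897 counts).

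**Figure D1:**
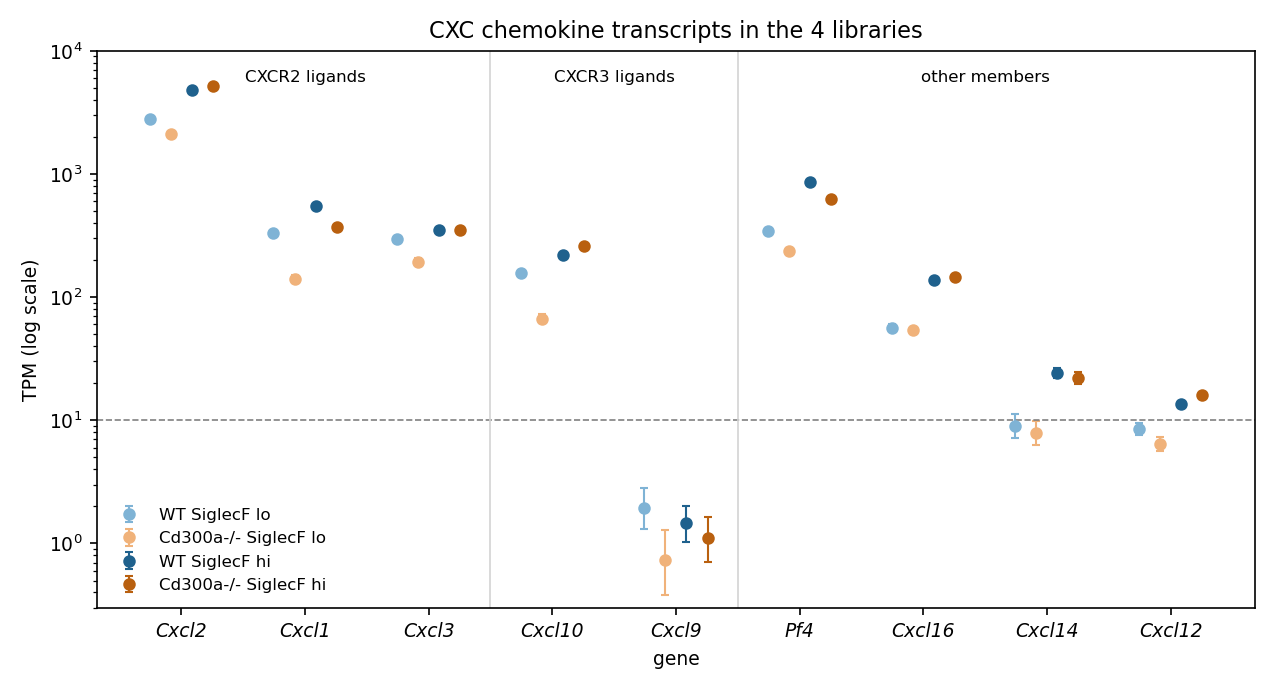
TPM on a log scale (vertical axis) of the 9 CXC chemokine genes (horizontal axis, grouped by role) in the 4 libraries, with bars for the 95% counting interval, which is smaller than the point for most genes, and a dashed line at the limit of 10 TPM. In each gene the *Cd300a-/-* SiglecF lo library has the lowest point, and *Cxcl2* lies above every other member with 2121 to 5222 TPM.

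Compared per length within a library, the order of the members was *Cxcl2*, *Pf4*, *Cxcl1*, *Cxcl3*, *Cxcl10*, *Cxcl16*, *Cxcl14*, *Cxcl12* and *Cxcl9* in 3 of the libraries. In *Cd300a-/-* SiglecF lo neutrophils *Cxcl3*, at 194 TPM, stood above *Cxcl1*, at 140.3 TPM. Some neighbours did not differ beyond counting error: *Pf4* and *Cxcl1* in WT SiglecF lo, *Cxcl14* and *Cxcl12* in both SiglecF lo libraries, and *Cxcl1* and *Cxcl3* in *Cd300a-/-* SiglecF hi neutrophils. The 15 CXC chemokine genes of the tables, which are the members and 6 others, summed to 4042, 2838, 7039 and 7050.0 TPM, so that the SiglecF hi libraries had nearly the same sum. *Cxcl2* alone made up 69.3%, 74.7%, 68.6% and 74.1% of this sum. The share of *Cxcl1* was 8.17% and 7.84% in the WT libraries and 4.94% and 5.28% in the *Cd300a-/-* libraries, in each case SiglecF lo before SiglecF hi. The TPM ratio of *Cxcl2* to *Cxcl1* was likewise 8.49 and 8.75 in the WT libraries and 15.1 and 14.0 in the *Cd300a-/-* libraries, so that this ratio varied more with genotype than with subset.

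Every one of the 9 members was lowest in *Cd300a-/-* SiglecF lo neutrophils, by TPM and by counts scaled with TMM factors, although for *Cxcl14* and *Cxcl16* the interval reached that of WT SiglecF lo cells and for *Cxcl9* those of both SiglecF hi libraries. Among all 6523 genes over the limit, this library held the lowest value for 46.4% by TPM and for 33.9% by TMM-scaled counts.

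Chemokine transcripts of the *Cd300a-/-* and WT libraries were compared first in SiglecF lo neutrophils. In this subset 4 of the 8 members over the limit were lower in *Cd300a-/-* cells past the threshold and 0 were higher, where 19.9% of all genes were lower and 16.4% higher. *Cxcl1* fell by 1.23 on the log2 scale (interval −1.35 to −1.10), and was 2.35-fold higher in WT cells. *Cxcl10* also fell by 1.23 (interval −1.37 to −1.09). *Cxcl3* fell by 0.61 (interval −0.72 to −0.50) and *Pf4* by 0.55 (interval −0.67 to −0.43), so that the intervals of these genes reached or crossed the threshold. *Cxcl2* had a ratio of −0.40 (interval −0.43 to −0.38), precisely measured and short of the threshold. The ratio was −0.35 (interval −0.56 to −0.14) for *Cxcl12*, −0.17 (interval −0.56 to 0.22) for *Cxcl14* and −0.07 (interval −0.21 to 0.07) for *Cxcl16*. *Cxcl9*, below the limit, had a ratio of −0.77 (interval −1.26 to −0.28) from 12 against 29 counts, a value that depends on the 1 added to TPM and came to −1.30 with 0.1 added. The median of the 8 members was −0.48, beside −0.02 for all genes. In bulk libraries of sorted cells, fewer cells that express a gene and less of its RNA per cell cannot be told apart.

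Genes induced through the same pathways were followed in this comparison. The CXCR3 ligands belong to the interferon-induced genes. Of 18 interferon-induced genes and interferon receptors, 17 were over the limit, and 9 were lower and 0 higher in *Cd300a-/-* SiglecF lo neutrophils, with a median of −0.54. The largest fall was that of *Ifit1*, an inhibitor of viral translation, by 1.46, and the most abundant gene, *Isg15*, a ubiquitin-like modifier, went from 1016 TPM to 518 TPM. *Irf9*, a subunit of the interferon-activated transcription factor, had the highest ratio, 0.39. Of 20 early targets of NF-κB, the class to which the ELR chemokines belong, 3 were lower and 1 was higher, with a median of −0.03. Among all genes 19.9% were lower and 16.4% higher, with a median of −0.02. Within the NF-κB list the ratio was −0.58 for *Ccl3*, a CC chemokine, and 0.51 for *Nfkb1*, a subunit of the factor. *Il1b*, the most abundant gene of the list, went from 9239 TPM in WT to 6637 TPM.

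Some cell type lists moved with this comparison, whereas the macrophage and fibroblast lists had medians near 0. Of all genes, 16.4% were higher and 19.9% lower past the threshold. Of the 10 neutrophil markers 4 were higher and 1 lower in *Cd300a-/-* SiglecF lo cells, with a median of 0.36. The 13 macrophage markers over the limit had a median of 0.00, with 2 higher and 2 lower. All 7 of the 10 endothelial markers over the limit were lower in *Cd300a-/-* SiglecF lo neutrophils, with a median of −1.64. The list summed to 612, 188, 360.0 and 473 TPM. This sum was lowest in *Cd300a-/-* SiglecF lo neutrophils, where the chemokines were lowest too. It was highest in WT SiglecF lo neutrophils, where the summed CXC chemokines were below both SiglecF hi libraries. The most abundant endothelial gene, *Fabp4*, was at 412, 117, 259.8 and 349.8 TPM, and no gene of the list was at 0 counts. Of 10 cardiomyocyte markers, 4 were over the limit, and 2 of these were lower, with a median of −0.58; the list summed to 69.0, 36.9, 63.6 and 118 TPM, and its gene *Ryr2* was at 0 counts in both *Cd300a-/-* libraries. *Ear2*, the most abundant of 8 eosinophil markers, was at 171, 85.9, 109.8 and 113 TPM, whereas *Epx*, which encodes eosinophil peroxidase, was at 0 counts in all 4 libraries. The eosinophil list summed to 173, 87.9, 117 and 119.8 TPM. The lowest and highest ratios were −0.52 for *G0s2* and 1.43 for *Ly6g* among neutrophil markers, −1.22 for *Fcgr1* and 1.28 for *Cd163* among macrophage markers, −1.82 for *Pecam1* and −0.68 for *Emcn* among endothelial markers, and −1.96 for *Mb* and −0.07 for *Myl2* among cardiomyocyte markers. The fibroblast markers had a median of 0.03, from −0.28 for *Dcn* to 0.81 for *Postn*. The part of these markers in the chemokine ratios was not tested.

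The same genotype comparison was then made in SiglecF hi neutrophils. Past the threshold 1 of the 8 members was lower in *Cd300a-/-* cells and 0 were higher, where 3.46% of all genes were lower and 3.31% higher. This gene was *Cxcl1*, which fell by 0.57 (interval −0.63 to −0.50). *Pf4* had a ratio of −0.47 (interval −0.53 to −0.40), which came to −0.50 and just past the threshold when the ratios were centred on the median of all genes. *Cxcl10* had a ratio of 0.25 (interval 0.18 to 0.32), *Cxcl12* of 0.23 (interval 0.10 to 0.35) and *Cxcl2* of 0.11 (interval 0.10 to 0.13), all higher in *Cd300a-/-* cells but short of the threshold. The ratios of *Cxcl3*, −0.02 (interval −0.09 to 0.06), and *Cxcl14*, −0.13 (interval −0.34 to 0.07), had intervals that held 0. *Cxcl16* had a ratio of 0.09 (interval 0.02 to 0.16) and *Cxcl9* of −0.23 (interval −0.63 to 0.18). The median of the 8 members was 0.03, beside 0.04 for all genes.

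The related lists in SiglecF hi neutrophils had medians above 0. The median was 0.17 for the interferon-induced genes and interferon receptors, with 1 of 17 higher and 0 lower. It was 0.29 for the NF-κB targets, with 2 of 20 higher and 0 lower. Of 10 fibroblast markers, 8 were over the limit, and 4 of these were lower in *Cd300a-/-* SiglecF hi neutrophils, with a median of −0.53. That list summed to 1062, 1086, 2268 and 1599 TPM, with *Dcn* as its most abundant gene and no gene at 0 counts. Other cell type lists had medians above 0 in this comparison: 0.56 for the 4 cardiomyocyte markers over the limit, with 2 higher and 0 lower; 0.38 for the 7 endothelial markers, with 1 higher and 1 lower; and 0.20 for the 10 neutrophil markers, with 2 higher and 0 lower and *Ly6g* at 1.82. The 13 macrophage markers had a median of −0.11, with 2 higher and 0 lower. The part of these markers in the chemokine ratios of this subset was not tested.

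The ratio between genotypes was then compared between the subsets, as the SiglecF hi ratio minus the SiglecF lo ratio. The difference passed 0.5 for 5 of the 8 members and passed −0.5 for 0 of them, where 20.3% of all genes passed it upward and 13.8% downward. It was 1.47 (interval 1.32 to 1.63) for *Cxcl10*, 0.66 (interval 0.52 to 0.80) for *Cxcl1*, 0.59 (interval 0.46 to 0.72) for *Cxcl3*, 0.57 (interval 0.33 to 0.82) for *Cxcl12* and 0.51 (interval 0.48 to 0.54) for *Cxcl2*, which came to 0.47, short of the threshold, when the median difference of all genes was subtracted. For *Pf4* it was 0.09 (interval −0.05 to 0.22), for *Cxcl16* 0.16 (interval 0.00 to 0.31) and for *Cxcl14* 0.04 (interval −0.40 to 0.48). *Pf4* was thus lower in *Cd300a-/-* cells by a like amount in both subsets, and *Cxcl1* was lower in both, more so in SiglecF lo cells. *Cxcl12* was under 10 TPM in both SiglecF lo libraries. With over 10 TPM required in every library, which leaves out *Cxcl12* and *Cxcl14*, the difference passed 0.5 for 4 of 6 members and −0.5 for 0 of them (16.9% and 10.2% of all genes). The median difference was 0.54 for the 8 members and 0.05 for all 6523 genes. The intervals cover counting error, and the differences were not tested.

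SiglecF hi neutrophils were compared with SiglecF lo neutrophils in each genotype. Here the scale matters: the median ratio of all 6523 genes was 0.53 in WT and 0.61 in *Cd300a-/-* cells by TPM, and ratios relative to this median (centred) are given beside the TPM ratios. The subset comparisons share libraries with the genotype comparisons and are not independent of them.

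In WT mice, 6 of the 8 members were higher in SiglecF hi neutrophils by TPM and 0 were lower, where 51.9% of all genes were higher and 7.47% lower. After centring, 3 members were higher and 0 lower, where 19.3% of all genes were higher and 20.9% lower. These 3 were *Pf4*, at 1.33 by TPM (interval 1.24 to 1.42) and 0.80 centred, *Cxcl14*, at 1.33 (interval 1.02 to 1.64) and 0.80 centred, and *Cxcl16*, at 1.26 (interval 1.15 to 1.38) and 0.74 centred. The CXCR2 ligands followed the bulk of genes more closely. *Cxcl2* had a ratio of 0.79 (interval 0.77 to 0.81) and 0.26 centred, and *Cxcl1* of 0.74 (interval 0.66 to 0.82) and 0.21 centred. *Cxcl3* changed direction with the scale, from 0.25 (interval 0.17 to 0.34) by TPM to −0.27 centred, and so did *Cxcl10*, from 0.48 (interval 0.38 to 0.57) to −0.05. *Cxcl12* was at 0.62 (interval 0.45 to 0.79) and 0.09 centred. *Cxcl9* was at −0.26 (interval −0.71 to 0.18) and −0.79 centred. The median of the 8 members was 0.76 by TPM and 0.24 centred. *Cxcl14* and *Cxcl12* were under 10 TPM in both SiglecF lo libraries and passed the limit through their SiglecF hi levels. With over 10 TPM required in both libraries compared, 4 of 6 members were higher and 0 lower (45.4% and 7.28% of all genes), and after centring on those genes 2 and 0 (16.2% and 18.9%).

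In *Cd300a-/-* mice, 8 of the 8 members were higher in SiglecF hi neutrophils by TPM and 0 lower, where 56.6% of all genes were higher and 7.97% lower. After centring, 7 members were higher and 0 lower, where 21.2% of all genes were higher and 23.6% lower. *Cxcl10* had the largest ratio, 1.95 (interval 1.83 to 2.08) and 1.34 centred, a 3.91-fold difference in TPM. *Cxcl1* was at 1.40 (interval 1.29 to 1.52) and 0.79 centred, and *Cxcl2* at 1.30 (interval 1.28 to 1.32) and 0.69 centred. *Cxcl16*, *Pf4* and *Cxcl14* had centred ratios of 0.81, 0.80 and 0.75, near those of the WT comparison. *Cxcl12* was at 1.19 (interval 1.01 to 1.37) and 0.58 centred, and *Cxcl3*, the member that was no longer past the threshold after centring, at 0.84 (interval 0.74 to 0.94) and 0.23. *Cxcl9*, below the limit, was at 0.28 by TPM (interval −0.18 to 0.73) and at −0.33 centred. The median of the 8 members was 1.38 by TPM and 0.77 centred. Without *Cxcl14* and *Cxcl12*, as the limit in both libraries requires, 6 of 6 members were higher by TPM (50.3% of all genes, with 8.15% lower), and 5 of 6 after centring on those genes (19.1%, with 21.8% lower).

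**Figure D2:**
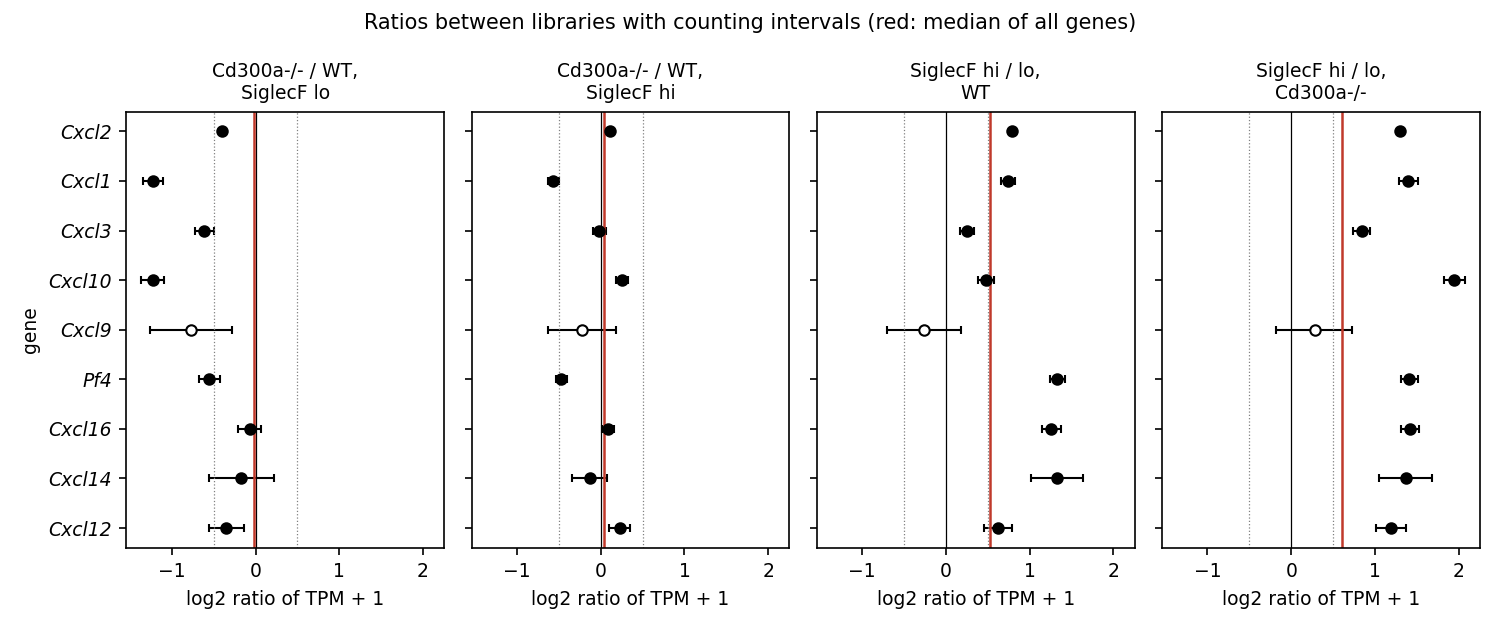
Log2 ratio of TPM + 1 (horizontal axes) for the 9 CXC chemokine genes (vertical axis) in the 4 comparisons, with bars for the 95% counting interval, dotted lines at −0.5 and 0.5, a red line at the median of all genes and an open point for *Cxcl9*, which is below the expression limit. Points lie left of or at 0 in the SiglecF lo genotype panel, and between the dotted lines except for *Cxcl1* in the SiglecF hi genotype panel. In the *Cd300a-/-* subset panel all points lie right of 0, and only *Cxcl9* lies left of the red line at 0.61.

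Macrophage markers moved with the subset comparison. Of 14, 13 were over the limit, and 9 were higher and 1 lower in SiglecF hi neutrophils of WT mice (8 higher and 2 lower after centring), with a median of 1.21 by TPM and 0.68 centred. In *Cd300a-/-* mice 10 were higher and 0 lower (5 and 2 after centring), with a median of 0.99 by TPM and 0.37 centred. The list summed to 3189, 2985, 7817 and 7024 TPM. Its most abundant gene on average was *C1qb*, a complement subunit, at 839, 754, 2257 and 2036 TPM, and no gene of the list was at 0 counts. The fibroblast list had centred medians of 0.54 in WT and −0.19 in *Cd300a-/-* mice, and the endothelial list of −1.51 and 0.10. All 10 neutrophil markers were lower after centring in both genotypes, with centred medians of −1.59 in WT and −1.62 in *Cd300a-/-* mice. The 4 cardiomyocyte markers had medians of 0.21 by TPM and −0.32 centred in WT, and of 1.16 and 0.55 in *Cd300a-/-* mice, where *Mb*, which encodes myoglobin, was at 3.81. In the WT and *Cd300a-/-* SiglecF lo libraries *Mb* was at 7.96 and 1.30 TPM and *Tnnt2* at 6.70 and 5.22 TPM. Both genes passed the limit on the mean through their SiglecF hi levels. In WT mice the lowest and highest ratios by TPM were −0.53 for *Lyve1* and 1.65 for *C1qc* among macrophage markers, 0.80 for *Dpt* and 1.29 for *Postn* among fibroblast markers, −2.26 for *Cldn5* and −0.09 for *Emcn* among endothelial markers, −0.37 for *Myl2* and 0.88 for *Tnnt2* among cardiomyocyte markers, and −4.77 for *Ly6g* and −0.12 for *Itgam* among neutrophil markers. The part of these markers in the chemokine ratios between subsets was not tested.

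Platelet genes were listed beside *Pf4*. Of 12 platelet and megakaryocyte markers 0 were over the limit, and the list summed to 16.9, 23.1, 18.2 and 24.0 TPM. Of the list 7, 7, 4 and 5 genes were at 0 counts. *Itgb3*, an integrin chain, had 144, 184, 210 and 224 counts, *Clec1b* 20, 51, 2 and 19, *Itga2b* 26, 21, 40 and 44, and *Gp1ba* 13, 7, 23 and 26. The platelet genes *Gp1bb* and *Gp5* were at 0 counts in all 4 libraries, and *Gp9* was at 0 counts in 3 of them and at 7 counts in *Cd300a-/-* SiglecF hi neutrophils. *Ppbp*, which lies beside *Pf4* and encodes the other abundant CXC chemokine of platelets, was at 6.11 TPM (34 counts), 7.66 TPM (47 counts), 9.47 TPM (90 counts) and 11.4 TPM (97 counts). The TPM ratio of *Pf4* to *Ppbp* was 56.5, 30.7, 91.6 and 55.0.

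Markers of lymphocytes and dendritic cells were summed in the same way. The summed level was 16.2, 15.3, 8.42 and 12.3 TPM for 10 T and NK cell genes, 6.17, 9.68, 18.9 and 25.6 TPM for 8 B cell genes, and 15.3, 5.03, 8.14 and 9.49 TPM for 8 dendritic cell genes. None of these genes had a mean over the limit. *Trac* and *Ighm*, which encode constant chains of the antigen receptors, were at 0 counts in all 4 libraries, whereas other genes of the same lists had counts in each, among them *Cd22* with 25, 41, 431 and 419, *Cd79b* with 17, 18, 77 and 80, and *Cd3d* with 14, 40, 19 and 55. *Cd22*, the most abundant of the B cell genes, reached 10.6 TPM in *Cd300a-/-* SiglecF hi neutrophils. *Cd209a*, the most abundant of the dendritic cell genes, had 80, 0, 15 and 10 counts, or 10.5 TPM in WT SiglecF lo neutrophils, and its part in the SiglecF lo genotype ratios was not tested. *Cd2*, the most abundant of the T and NK cell genes, had 26, 25, 41 and 27 counts.

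The other 6 CXC chemokine genes were mostly silent or near it. *Cxcl5*, a further ELR ligand of CXCR2, was the only one over the limit, at 26.8 TPM (217 counts), 4.03 TPM (36 counts), 30.8 TPM (426 counts) and 19.9 TPM (246 counts), with *Cd300a-/-* SiglecF lo neutrophils far below the others. *Cxcl5* was lower in *Cd300a-/-* than in WT SiglecF lo cells by 2.47 (interval −2.89 to −2.05), a larger difference than that of any member. In SiglecF hi cells it was lower by 0.61 (interval −0.82 to −0.39). Its subset ratio was 0.19 by TPM and −0.33 centred in WT mice, and 2.05 and 1.44 in *Cd300a-/-* mice. *Cxcl11*, the third interferon-induced ligand of CXCR3, had 16, 0, 31 and 27 counts. *Cxcl13*, a B cell attractant, had 9, 0, 0 and 0 counts. *Cxcl15* had 1 count in *Cd300a-/-* SiglecF hi neutrophils and 0 in the others, and *Cxcl17* had 0 in all 4.

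The receptors for these ligands were examined beside them. *Cxcr2*, the receptor of the ELR chemokines, was at 876, 954, 376 and 372 TPM, and *Cxcr1*, its close relative, at 58.3, 62.4, 14.1 and 10.4 TPM. Both were lower in SiglecF hi neutrophils, the subset in which *Cxcl1* and *Cxcl2* had their higher TPM. *Cxcr2* had a ratio of −1.22 in WT (interval −1.26 to −1.18, −1.75 centred) and of −1.36 in *Cd300a-/-* mice (interval −1.39 to −1.32, −1.97 centred). The genotype ratio of *Cxcr2* was 0.12 (interval 0.09 to 0.16) among SiglecF lo cells and −0.01 (interval −0.05 to 0.03) among SiglecF hi cells. *Cxcr4*, the receptor of CXCL12 and the most abundant of the 8 receptors, was at 1521, 1206, 1641 and 1801 TPM. It was higher in SiglecF hi cells by TPM, with ratios of 0.11 in WT and 0.58 in *Cd300a-/-* mice, and lower after centring, at −0.42 and −0.04. *Cxcr3*, the receptor of CXCL9 and CXCL10, was below the limit, with 74, 14, 208 and 114 counts. *Cxcr5* had 35, 41, 51 and 18 counts, *Cxcr6*, the receptor of CXCL16, 0, 0, 6 and 2 counts, and *Ackr1*, an atypical receptor that binds inflammatory chemokines, 0, 11, 16 and 17 counts. *Ackr3*, which scavenges CXCL12, was at 6.51, 8.33, 11.8 and 14.1 TPM. In neither genotype comparison was any of the 4 receptors over the limit past the threshold. *Cxcr3*, below the limit, had a genotype ratio of −1.94 (interval −2.47 to −1.41) in SiglecF lo cells, which came to −2.46 with 0.1 added to TPM. Its genotype ratio in SiglecF hi cells was −0.65 (interval −0.95 to −0.35).

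Genes that act below the receptors were counted in the same way. All 18 genes for G proteins, arrestins, kinases and effectors were over the limit. In *Cd300a-/-* SiglecF lo neutrophils 3 were higher and 1 lower (median 0.19), where 16.4% of all genes were higher and 19.9% lower. In SiglecF hi neutrophils 0 passed the threshold (median 0.05). *Gnai2*, the G protein subunit coupled to these receptors, was the most abundant, at 1399, 1458, 1305 and 1284 TPM. In SiglecF lo cells the highest ratio was 0.68 for the receptor kinase *Grk6* and the lowest −0.55 for its relative *Grk5*. Relative to all genes the list was lower in SiglecF hi cells, with centred medians of −0.40 in WT and −0.70 in *Cd300a-/-* mice, whereas by TPM the medians were 0.13 and −0.08. *Rgs1*, which ends G protein signals, was the 1 gene past the threshold upward after centring in each genotype, with a WT subset ratio of 1.34 by TPM.

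Receptors and adaptors of the pathways that induce the ELR chemokine genes were listed too, among them *Il1r2*, the decoy receptor of IL-1, which does not signal. Of 14, 12 were over the limit, with a median genotype ratio of 0.27 in the SiglecF lo subset (1 higher, 0 lower) and 0.29 in the SiglecF hi subset (0 past the threshold). In the SiglecF lo comparison 16.4% of all genes were higher and 19.9% lower. *Cd14*, a coreceptor for bacterial lipids, was the most abundant of the list, at 4015, 4471, 3034 and 3717 TPM. It was followed by *Il1r2*, at 2798, 2960.1, 2219 and 2889.7 TPM. *Il1rap*, the shared chain of the IL-1 receptors, had the highest ratio in SiglecF lo cells, 0.54, and *Tnfrsf1a*, a TNF receptor, the lowest, −0.05, among the 12. The other genes of the list were below the limit and lowest in *Cd300a-/-* SiglecF lo neutrophils: *Il1r1*, the signalling receptor of IL-1, had 159, 15, 273 and 211 counts, with a SiglecF lo genotype ratio of −2.08 (interval −2.37 to −1.79), and *Il17rc*, a chain of the IL-17 receptor, had 33, 0, 32 and 37 counts. The *Il1r1* ratio depends on the 1 added to TPM. It came to −3.28 with 0.1 added and to −2.89 with TMM-scaled CPM. In the subset comparison the centred medians of this list were −0.71 in WT and −0.68 in *Cd300a-/-* mice, beside 0.09 and 0.27 for the NF-κB targets. The adaptor *Traf6* had the highest WT subset ratio of this list, 1.01 by TPM, and *Il1rap* the lowest, −0.55. The highest NF-κB target in the WT subset comparison was *Il1a*, at 2.00, and the lowest was *Bcl3*, at −0.11. The interferon-induced genes and interferon receptors had centred medians of −0.46 in WT and −0.01 in *Cd300a-/-* mice. In WT *Isg15* was the lowest of them, at −1.12 before centring, and *Gbp3* the highest, at 0.56.

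The mRNAs of ELR chemokines carry AU-rich elements that are bound by decay factors. Of 8 genes for such factors and regulators, 7 were over the limit and 0 passed the threshold in either genotype comparison, with medians of −0.08 for the SiglecF lo and 0.12 for the SiglecF hi subset. *Zfp36*, which encodes the decay factor tristetraprolin, was the most abundant, at 662, 671, 980.4 and 1119.8 TPM. *Elavl1*, which encodes the stabilising factor HuR, had the highest WT subset ratio by TPM, 1.03, and *Zfp36l2* the lowest, 0.24. The median of all genes was 0.53 in that comparison. *Elavl1* was at 9.15 and 7.47 TPM in the WT and *Cd300a-/-* SiglecF lo libraries, and passed the limit on the mean through its SiglecF hi levels. The SiglecF lo genotype ratios ran from −0.29 for *Hnrnpd* to 0.20 for *Zfp36l2*. Among 10 proteases that cleave or shed CXC chemokines, 6 were over the limit. Of these, 3 were higher and 0 lower in *Cd300a-/-* SiglecF lo neutrophils, where 16.4% of all genes were higher and 19.9% lower. In SiglecF hi neutrophils 1 was higher and 2 lower, where 3.31% of all genes were higher and 3.46% lower. *Mmp9*, a granule gelatinase and the most abundant, was at 1440.2, 2257, 1297 and 1684 TPM. *Mmp12*, the macrophage elastase, which cleaves ELR chemokines, was at 1.09 TPM (23 counts), 15.6 TPM (362 counts), 68.5 TPM (2462 counts) and 46.9 TPM (1508 counts). It was among the 3 proteases called higher in *Cd300a-/-* SiglecF lo neutrophils, at 2.99. This ratio starts near the floor, and *Mmp12* passed the limit on the mean through its SiglecF hi levels. *Mmp8*, a collagenase of neutrophil granules, was lowest in the subset comparison of WT mice, at −3.09, and *Anpep* lowest in the SiglecF lo genotype comparison, at −0.24.

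The ELR chemokine genes and *Pf4* also share a place in the genome. Positions are those of the deposited tables, and the submitters' processing notes name the build GRCm39. *Cxcl5*, *Ppbp*, *Pf4*, *Cxcl3*, *Cxcl15*, the unnamed gene model *Gm43085*, *Cxcl1* and *Cxcl2* follow each other on the plus strand of chromosome 5. *Pf4* lies at chr5:90920294-90921242, *Cxcl3* at chr5:90933962-90937459, *Cxcl1* at chr5:91039100-91040974 and *Cxcl2* at chr5:91051730-91053797. Neighbours did not share their level: *Ppbp*, at 6.11 to 11.4 TPM, lies beside *Pf4*, at 235 to 867 TPM, and *Cxcl15* and *Gm43085* had 0 counts in the SiglecF lo libraries between *Cxcl3* and *Cxcl1*. *Cxcl9* (chr5:92469206-92475938) and *Cxcl10* (chr5:92494497-92496748) lie on the minus strand of the same chromosome. *Cxcl12* (chr6:117145496-117158328), *Cxcl14* (chr13:56436456-56444364) and *Cxcl16* (chr11:70344809-70350810) lie elsewhere.

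**Figure D3:**
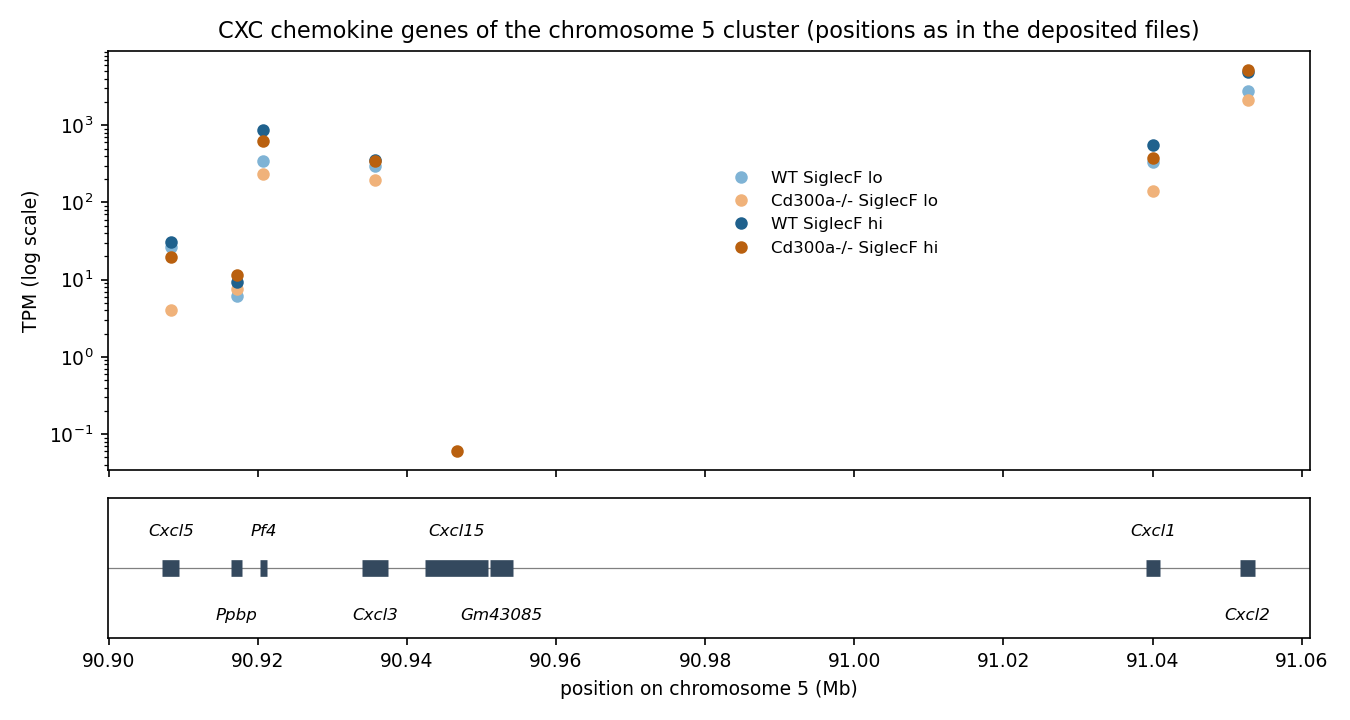
Position on chromosome 5 in Mb (horizontal axis) against TPM on a log scale (vertical axis, upper panel) of the genes of the CXC chemokine cluster in the 4 libraries, with the gene spans below. Points at 0 TPM are not drawn, so *Gm43085* has none and *Cxcl15* has 1 point, at 0.0599 TPM, and the *Cd300a-/-* SiglecF lo library is lowest in *Cxcl5*, *Pf4*, *Cxcl3*, *Cxcl1* and *Cxcl2* but not in *Ppbp*.

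Sequence shared with other genes can blur such counts. Of the words of 35 bases in the coding transcripts of *Cxcl2*, 4.09% occur in *Cxcl3*, and 7.74% of those of *Cxcl3* occur in *Cxcl2* (GENCODE M21), while *Cxcl1*, *Cxcl14* and *Pf4* share 0 words with another gene. *Cxcl10* lies within the span of *Art3* on the opposite strand and shares 6.53% of its words with it, and *Art3* had 74, 62, 104 and 76 counts. *Cxcl16* shares 552 bases of its span with *Zmynd15* on the opposite strand and 21.2% of its words, and *Zmynd15* had 6, 79, 158 and 218 counts. The sources do not say whether the counting used strand, and without it reads of the genes that overlap cannot be told apart in the shared bases.

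The bases before the start of the chemokine genes were searched for short motifs, and the stretches that hold an NF-κB core are printed to show where it lies. Promoters came from RefSeq (GRCm38.p6), which matched 8 of the 9 members, all but *Cxcl16*, and the 250 bases before the start were searched on both strands. The NF-κB core GGANNTTCC is in 3.59% of 32851 promoters and in those of *Cxcl1*, *Cxcl2*, *Cxcl3* and *Cxcl10*. The interferon response core GAAANNGAA is in 7.13% and in *Cxcl9*, *Cxcl10* and *Cxcl14*. The AP-1 motif TGANTCA is in 6.75% and in *Cxcl10*, and the C/EBP motif TTGCNNAA is in 9.56% and in *Pf4*. No matches of different motifs overlapped in the members. A match describes these letters only. The stretches that end at the base before the start are printed 5′ to 3′ on the strand of the gene, with the NF-κB core, and in *Cxcl10* also the interferon response core, in capitals. They are chr5:90891145-90891244 (plus strand) for *Cxcl1*, chr5:90903799-90903898 (plus strand) for *Cxcl2*, chr5:90786001-90786100 (plus strand) for *Cxcl3* and chr5:92348890-92349109 (minus strand) for *Cxcl10*, in GRCm38.p6.
Cxcl1: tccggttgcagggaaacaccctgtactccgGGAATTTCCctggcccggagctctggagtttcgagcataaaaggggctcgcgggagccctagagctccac
Cxcl2: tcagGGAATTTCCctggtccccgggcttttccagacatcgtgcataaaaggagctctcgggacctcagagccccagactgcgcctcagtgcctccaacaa
Cxcl3: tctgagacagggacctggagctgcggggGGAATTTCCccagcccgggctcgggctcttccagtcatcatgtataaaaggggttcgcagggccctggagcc
Cxcl10: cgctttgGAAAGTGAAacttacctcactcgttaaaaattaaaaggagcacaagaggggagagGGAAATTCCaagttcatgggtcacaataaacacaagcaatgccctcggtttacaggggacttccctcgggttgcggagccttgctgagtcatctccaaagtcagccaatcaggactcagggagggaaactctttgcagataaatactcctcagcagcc

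The same match, GGAATTTCC, is in all 3 ELR members, 70 to 62 bases before the start in *Cxcl1*, 96 to 88 in *Cxcl2* and 72 to 64 in *Cxcl3*. Over 50 bases that begin 1 base before the match, without gaps, *Cxcl1* and *Cxcl2* are identical at 22, *Cxcl1* and *Cxcl3* at 25 and *Cxcl2* and *Cxcl3* at 24. These numbers include the bases of the match itself, which are identical because the window was placed on it. In *Cxcl10* the match GGAAATTCC is 158 to 150 bases and the match GAAAGTGAA 213 to 205 bases before the start.

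The genes with the pattern nearest to each member across the 4 libraries were found by the root mean square distance of log2(TPM + 1) centred on the gene's mean, among the 6523 genes over the limit. For *Cxcl1* they were *0610009B22Rik* (distance 0.034), *Dmac1* and *Ndufa12*, and the nearest member, *Pf4*, ranked 328. For *Cxcl2* they were *Usp16* (0.017), *Pfdn6* and *Dnajb12*, with *Cxcl12* at rank 125. For *Cxcl3* they were *Yipf4* (0.009), *Psma3* and *Rps15a*, and for *Cxcl10* they were *Dynlt2b* (0.049), *Nob1* and *Lage3*. The members nearest to these were *Cxcl12* at rank 1295 and *Cxcl1* at rank 495. *Pf4* was nearest to *Prdx1* (0.031), *Snx8* and *G6pc3*, *Cxcl12* to *Tomm34* (0.007), *Ier3* and *Tmem181a*, *Cxcl14* to *Pank3* (0.018), *Eef1d* and *Hpse*, and *Cxcl16* to *Abce1* (0.030), *Itch* and *Nomo1*. *Cxcl14* and *Cxcl16* were each other's nearest member, at ranks 84 and 61, so no member had another member among its nearest genes, and 4 libraries leave many genes with a like pattern.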

How the data were processed

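RNA was extracted with ISOGEN, and poly(A)-selected libraries were made with the NEBNext Ultra II kit and sequenced as paired ends on a NextSeq. CLC Genomics Workbench 20.0 was named for the expression values, and the submitters' processing notes name GRCm39; mapper settings and annotation release are not given in the sources used here. The deposited count of a gene is a raw whole number, of reads or of read pairs (the sources do not say which). RPKM and TPM were calculated by the authors with correction for length and depth, and TPM was used as deposited. The column that the authors called CPM is a signal, counts rescaled with TMM factors, and matched those of edgeR 4.0.16 (R 4.3.3) with a log2 difference of at most 0.000123; RPKM was not used.

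Ratios were log2((TPM + 1) ratio) with a 95% interval from the Poisson error of both counts, and no ratio was given for a library with 3 counts or fewer. The libraries carry no molecular identifiers as far as the sources say, so copies from PCR were counted too and the intervals cover counting error only. With 1 library per group no test was run and no P value is given. Genes were described by lists with their counts past 0.5 and their median, beside all genes with a mean TPM over 10. The members and lists were chosen with earlier results of these data known. The genes named are the 9 members, the other CXC genes and receptors, the most abundant gene and the largest rise and fall of each list in the SiglecF lo genotype and WT subset comparisons, the 3 genes nearest in pattern to each member, and the sorting markers. *Gp1bb*, *Gp5*, *Gp9*, *Ryr2*, *Epx*, *Trac* and *Ighm* were named for being at or near 0, *Itgb3*, *Itga2b*, *Gp1ba*, *Clec1b*, *Cd79b* and *Cd3d* for having counts in every library, *Il1r2* as a decoy, *Il1r1* and *Il17rc* for their fall in genes under the limit, and *Art3* and *Zmynd15* for their overlap, after their values were seen. Alternatives were a pseudocount of 0.1, TMM-scaled CPM, centring on the median of all genes, a mean TPM over 1, a TPM over 10 in both libraries or in at least 1, no filter and a threshold of 1. The calculations were tested on simulated data in Python 3.11.15 (numpy 2.4.6, pandas 2.3.3, scipy 1.17.1), and figures were drawn with matplotlib 3.10.9.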

Additional observations from a re-analysis of the deposited data

Results flagged for a closer look

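The ratio of *Cd300a-/-* to WT was lower in SiglecF lo and higher in SiglecF hi neutrophils, with neither counting interval holding 0, for 3 members. The SiglecF hi log2 ratio minus the SiglecF lo ratio was 1.47 for *Cxcl10*, from −1.23 to 0.25, with ratios past the threshold in SiglecF lo cells only. It was 0.57 for *Cxcl12*, from −0.35 to 0.23, and 0.51 for *Cxcl2*, from −0.40 to 0.11. *Cxcl12* was under 10 TPM in both SiglecF lo libraries, at 8.45 and 6.43 TPM, and passed the limit on the mean through its SiglecF hi levels. The difference for *Cxcl2* came to 0.47 with TMM scaling and 0.46 with both ratios centred, short of 0.5. *Cxcl16* also had opposite signs, from −0.07 to 0.09, but its SiglecF lo interval held 0. With 1 library per group, these differences were not tested.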

How the results depend on the processing

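No ratio of a single member, and no median of the members, that was past the threshold changed sign under the alternatives run for it. Other genes and lists were recomputed under fewer settings. In the *Cd300a-/-* subset comparison centring changed the sign of *Cxcr4*, from 0.58 to −0.04. It also changed that of the medians of the interferon-induced genes and interferon receptors, from 0.60 to −0.01, and of the proteases, from 0.55 to −0.06. Fewer members passed in the WT subset comparison when the shift of all genes was removed, 3 with TMM-scaled CPM, 3 after centring and also 3 at a threshold of 1, against 6 by TPM. With over 10 TPM in both libraries compared 4 of 6 members passed there and 6 of 6 in *Cd300a-/-* mice; centring on the median of those genes as well, a setting chosen after seeing the data, left 2 and 5. The median of the members in the WT subset comparison fell from 0.76 to 0.22 with TMM scaling and 0.24 after centring, and in *Cd300a-/-* mice from 1.38 to 0.82 and 0.77; these settings subtract the shift by construction. The median difference of the genotype ratio between subsets went from 0.54 to 0.51 with TMM scaling, 0.49 after centring and 0.55 with over 10 TPM in every library, the last also chosen after seeing the data. In the SiglecF lo genotype comparison 2 members, *Cxcl1* and *Cxcl10*, passed a threshold of 1. In the SiglecF hi genotype comparison 2 passed 0.5 after centring and 0 passed a threshold of 1. Of the single values for each member, 96 moved by less than their counting interval and 39 by more, 18 with TMM scaling, 20 after centring and 1, *Cxcl9* in the SiglecF lo genotype comparison at −1.30, with a pseudocount of 0.1. With 1 library per group no library could be left out. *Cxcl9*, *Cxcl14* and *Cxcl12* rest on the fewest counts, and differences inside their intervals were not detectable at this depth.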
